A study of Mus musculus with 22 samples.

Results

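The genes described here are 10 mouse genes of the endoplasmic reticulum (ER) stress response and the integrated stress response (ISR) in testes with and without MLX: *Atf4*, *Atf3*, *Ddit3*, *Trib3*, *Chac1*, *Atf6*, *Ern1*, *Xbp1*, *Hspa5* and *Hsp90b1*. They were chosen by name for their role, and all 10 have a row among the 17931 gene symbols of the count table. RNA was sequenced from whole, untreated testes of males aged 7 months, 3 WT and 3 MLX KO, which were littermates in 3 pairs, the WT males being proven breeders. The MLX KO males carried a constitutive deletion of the *Mlx* exons for the DNA-binding and dimerization domain, made in embryonic stem cells and opened with a Meox2-Cre deleter that was later bred out, so the deletion was not limited to 1 cell type of the testis. MLX is a transcription factor of the extended MYC network that partners with the nutrient-sensing MondoA and ChREBP. The comparison asks how the testes transcriptome differed in its absence.

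When misfolded proteins build up in the ER, the sensors PERK (*Eif2ak3*), IRE1 (*Ern1*) and ATF6 are activated. PERK belongs to a family of kinases that phosphorylate the initiation factor eIF2, which lowers translation in general and raises that of the transcription factor ATF4. ATF4 induces *Atf3*, *Ddit3* (CHOP), *Trib3* and *Chac1*. IRE1 splices the *Xbp1* mRNA into the form that encodes the active factor, and ATF6 is cleaved to release its own active fragment. XBP1 and ATF6 induce ER chaperones such as *Hspa5* (BiP) and *Hsp90b1* (GRP94) and the machinery of ER-associated degradation. Male germ cells load the ER with acrosomal and sperm surface proteins, and use chaperones of their own for them. Counts per gene do not show splicing of *Xbp1*, cleavage of ATF6, phosphorylation of eIF2 or translation of *Atf4*.

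In MLX KO testes the mRNAs of the sensors and of the factors *Xbp1* and *Atf4* were higher, that of *Ddit3* was slightly lower, and those of the chaperones *Hspa5* and *Hsp90b1* differed little. Of the 10 genes, 8 had enough counts for edgeR's quasi-likelihood test, and 5 of these 8 had an adjusted p under 0.05 (Benjamini-Hochberg over 14640 genes), where 45.4% of all genes tested did. Higher were *Ern1*, *Xbp1*, *Atf6* and *Atf4*, 4 of 8 against 24.8% of all genes, and lower was *Ddit3*, 1 of 8 against 20.6% of all genes. With so large a part of the transcriptome past the threshold, these shares alone do not set the genes apart. The median log2 fold change (LFC, MLX KO relative to WT) was 0.20 over the 8 genes and 0.03 over all genes tested. *Atf3* and *Trib3* had too few counts for the test. Without a filter on low counts edgeR called 6 of the 10, *Atf3* added, 5 higher (all genes 36.9%, 20.2% higher and 16.7% lower), and DESeq2 called the same number in each direction (all genes 38.1%, 18.4% higher and 19.6% lower). When the littermate pair entered edgeR as a replicate block, 4 were higher and 1 lower (all genes 46.1%, 25.5% higher and 20.5% lower). The replicate block in DESeq2 left 3, all higher, namely *Ern1*, *Xbp1* and *Atf3* (all genes 30.2%, 14.5% higher and 15.7% lower). Scaling by library size alone gave 5 higher and 0 lower, also 0 lower at an unadjusted p under 0.05 (all genes 45.2%, 36.5% higher and 8.66% lower). Without the library KO2 the number past the threshold was 3. That fit had fewer samples, and its share over all genes is not given here, so the drop is not particular to these genes.

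The 6 libraries held between 16674678 and 19742726 counts. Levels are given as CPM, counts per 1000000 after scaling by library size and TMM factor. *Mlx* itself had 96 to 128 counts in WT and 94 to 109 in MLX KO libraries. The count includes exons outside the deletion and the 3′ end overlaps *Psmc3ip*, so it does not check the labels, and WT and MLX KO below name libraries as they are labelled. Libraries KO2 and KO3 differed less from each other (chi-square per degree of freedom 2.73) than either did from KO1 (8.22 and 8.23). Scaling by library size alone moved the median LFC of all genes from 0.03 to 0.16. Whole testes hold several cell types, and fewer cells of a type cannot be told apart from less RNA per cell. All 12 markers of elongating spermatids were lower (summed level 29169 to 30212 CPM in WT and 17926 to 21732 in MLX KO libraries), as were all 10 of round spermatids and 8 of 10 of spermatocytes. The spermatocyte count was 1 with library size alone, 3 without WT1, 2 without KO2 and 4 without KO3, and the round spermatid count was 4 with library size alone. All 11 Sertoli cell markers were higher (summed level 922 to 970 and 1411 to 1706 CPM), as were all 9 Leydig cell markers (901 to 924 and 1909 to 2527 CPM) and all 10 macrophage markers tested (86.8 to 92.7 and 188 to 193 CPM). Their part in the results on the stress genes was not tested.

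Per kb of exon, the members spanned a wide range of levels in WT testes. *Hsp90b1* came first with 197 ± 3.04 CPM per kb (SD, n = 3) and *Hspa5* second with 157 ± 1.63. They were followed by *Ddit3* with 30.5 ± 1.21 and *Atf4* with 14.6 ± 0.383 CPM per kb. *Xbp1* (4.23 ± 0.193) and *Atf6* (3.31 ± 0.137) lay below these, then *Ern1* (1.15 ± 0.0230) and *Chac1* (1.07 ± 0.391), which overlapped. *Trib3* and *Atf3* were last, at 0.121 ± 0.0841 and 0.0622 ± 0.0150 CPM per kb, and overlapped as well. The testis thus held much mRNA of the ER chaperones and of *Ddit3*, and nearly none of *Trib3* or *Atf3*. In MLX KO testes the order was the same down to *Chac1*, and *Atf3* (0.356 ± 0.162 CPM per kb) stood above *Trib3* (0.110 ± 0.105).

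**Figure D1:**
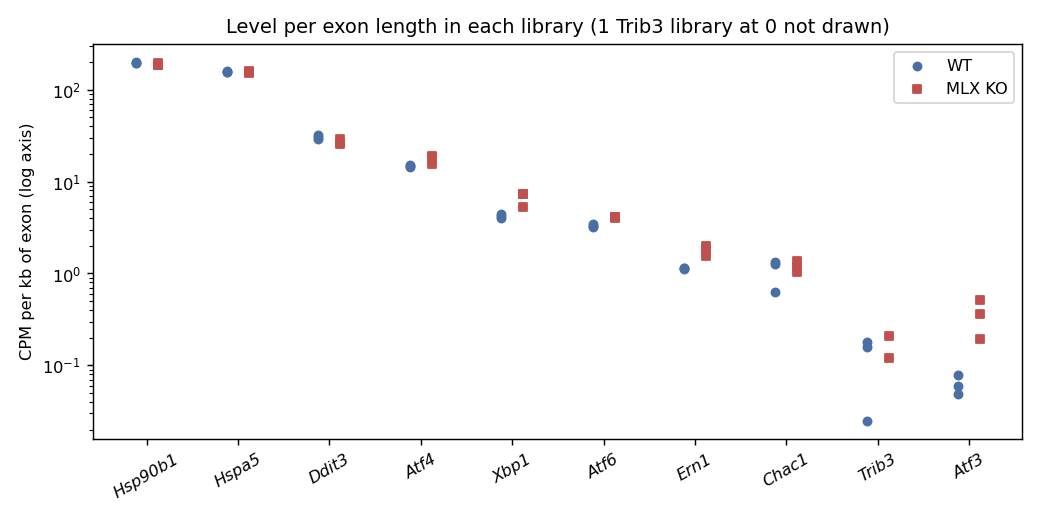
Level of the 10 genes in CPM per kb of exon (vertical log axis), 1 point for each library (circles WT, squares MLX KO), ordered by WT mean. Levels run from 197 CPM per kb for Hsp90b1 to 0.0622 for Atf3 in WT, and Atf3 is the gene whose groups stand furthest apart.

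*Ern1* encodes IRE1, the kinase and ribonuclease of the ER membrane, and lies on chromosome 11 of mm10 from 106397620 to 106487796 on the minus strand. Its level was 9.49, 9.16 and 9.47 CPM in WT1 to WT3 and 12.7, 14.9 and 16.5 CPM in KO1 to KO3. Every MLX KO library lay above every WT library, and the spread was wider among MLX KO libraries. The LFC was 0.65 (SE 0.11, 3 of 3 pairs higher, adjusted p = 8.94e-04 from edgeR), with a 95% interval of 0.40 to 0.89. *Xbp1*, whose mRNA is the substrate of IRE1, lies on chromosome 11 from 5520641 to 5525993 on the plus strand. It had 13.1, 13.7 and 14.4 CPM in WT and 17.1, 23.7 and 23.8 CPM in MLX KO libraries. The groups did not overlap, and KO1 was the MLX KO library nearest to WT. The LFC was 0.65 (SE 0.12, 3 of 3 pairs higher, adjusted p = 0.00159 from edgeR, 95% interval 0.38 to 0.92). *Ern1* and *Xbp1* passed the threshold under each of the 14 alternatives tried. The study also named *Xbp1* among genes that changed in these testes, so its direction is no independent evidence. Plasma cells depend on *Xbp1*, and a list of their markers together with B and T cell markers was low. The 9 lymphocyte and plasma cell markers with a row summed to 3.74 to 5.36 CPM in WT and 3.93 to 6.60 in MLX KO libraries, with *Cd3g* and *Cd79a* at 0 in some libraries and 0 of the 3 tested past the threshold in edgeR (1, *Mzb1*, was lower at an unadjusted p under 0.05) or in DESeq2. The median LFC of the 3 tested was 0.54. On immunoblots of whole testes the study found more mouse immunoglobulin in MLX KO, which it read as resident immune cells. The part of such cells in the result on *Xbp1* was not tested.

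*Atf6* encodes the sensor that is cut by the site proteases of the Golgi, and lies on chromosome 1 from 170704457 to 170868585 on the minus strand. Its level was 31.8, 29.3 and 30.4 CPM in WT and 37.0, 38.3 and 37.6 CPM in MLX KO libraries, so the groups did not overlap and the MLX KO libraries lay close together. The LFC was 0.30 (SE 0.06, 3 of 3 pairs higher, adjusted p = 0.00252 from edgeR). With the pair as a replicate block in DESeq2 the LFC was 0.27 and the adjusted p 0.0579. Of the 8 genes tested, 4 had every MLX KO library above every WT library, where 30.3% of all genes did, and *Ddit3* and *Hsp90b1* had every one below, where 25.9% of all genes did.

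**Figure D2:**
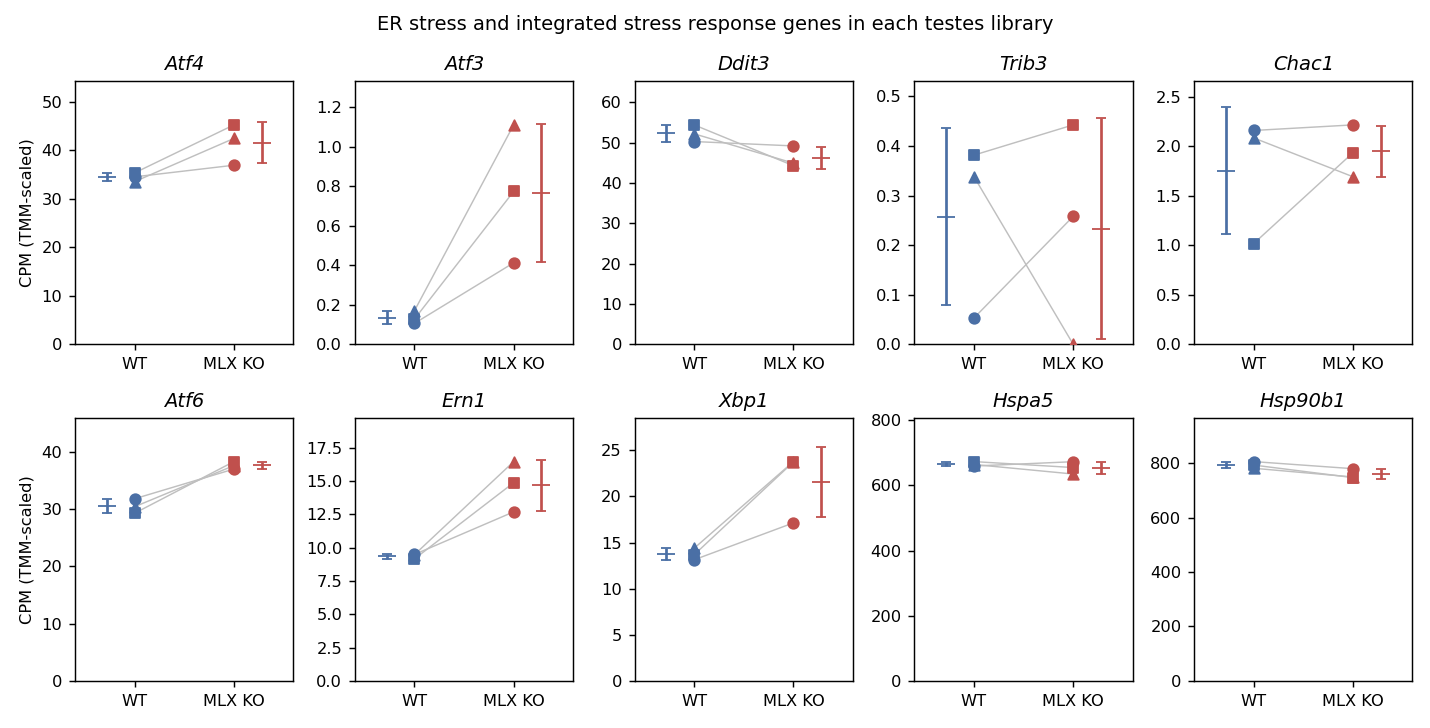
CPM of each gene in the 6 libraries (vertical axis from 0, scaled for each gene). Points are libraries, grey lines join littermate pairs (circle pair 1, square pair 2, triangle pair 3), and bars give the mean and SD. Ern1, Xbp1, Atf6, Atf4 and Atf3 are higher in all 3 MLX KO libraries, and Hspa5, Chac1 and Trib3 overlap.

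*Atf4*, the central factor of the ISR, lies on chromosome 15 from 80255184 to 80257545 on the plus strand. It had 34.5, 35.4 and 33.6 CPM in WT and 36.9, 45.3 and 42.5 CPM in MLX KO libraries. All MLX KO libraries were above WT, KO1 by little. The LFC was 0.27 (SE 0.08, 3 of 3 pairs higher, adjusted p = 0.0152 from edgeR). It lost the threshold without KO2 (LFC 0.21, adjusted p = 0.0629 from edgeR), without WT3 (LFC 0.25, adjusted p = 0.0517 from edgeR) and with the pair as a replicate block in DESeq2 (LFC 0.23, adjusted p = 0.109), and with library size alone the LFC was 0.41.

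*Ddit3*, which encodes the pro-apoptotic factor CHOP, lies on chromosome 10 from 127290793 to 127296291 on the plus strand. Unlike *Atf4*, it was lower, with 50.2, 54.4 and 52.2 CPM in WT and 49.2, 44.3 and 44.9 CPM in MLX KO libraries. The lowest WT and the highest MLX KO library, WT1 and KO1, were 1 pair and nearly equal. The LFC was -0.18 (SE 0.06, 3 of 3 pairs lower, adjusted p = 0.0327 from edgeR). The call did not hold without WT2, WT3, KO2 or KO3 (LFC -0.18 to -0.15, adjusted p = 0.0713 to 0.126 from edgeR), with the pair as a replicate block in DESeq2 (adjusted p = 0.120), or with library size alone (LFC -0.041). *Ddit3* overlaps *Mars1* and *Mbd6* of the other strand in RefSeq, and the strand setting of the counting is not given in the sources used here, so reads of these genes could not be told apart there.

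*Atf3* encodes a stress-induced repressor and activator of the ATF/CREB family and was also singled out by the study on these libraries, so its direction is no independent evidence. It lies on chromosome 1 from 191170296 to 191183333 on the minus strand. It had 2, 2 and 3 counts in WT and 8, 14 and 21 counts in MLX KO libraries, or 0.134 ± 0.0324 and 0.766 ± 0.350 CPM (SD, n = 3 each). All MLX KO libraries were above all WT libraries, each pair included. Summed over libraries, 43 counts stood against 7, a ratio of 5.72 with an exact 95% interval of 2.55 to 15.1 that covers counting error only. An exact permutation test of the CPM values gave a two-sided p = 0.1, the smallest that 3 against 3 allow. Without a filter on low counts, edgeR gave an LFC of 2.46 and an adjusted p of 0.00352 for *Atf3*, and DESeq2 with the replicate block gave 2.42 and 0.0461.

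*Trib3*, a pseudokinase that binds ATF4 and CHOP, lies on chromosome 2 from 152337425 to 152344060 on the minus strand. It had 1, 6 and 6 counts in WT and 5, 8 and 0 counts in MLX KO libraries. The sums were 13 and 13, and their ratio of 0.930 after scaling had an exact 95% interval of 0.397 to 2.18, which covers counting error only and leaves out the spread between animals. No difference was detectable at this depth, and larger ones are not excluded. *Chac1*, a glutathione-degrading enzyme on chromosome 2 from 119351242 to 119354326 on the plus strand, had 2.16, 1.02 and 2.09 CPM in WT and 2.22, 1.94 and 1.69 CPM in MLX KO libraries. The groups overlapped, and WT2 was the lowest of the 6. Its LFC was 0.13 (SE 0.28, 2 of 3 pairs higher, adjusted p = 0.722 from edgeR), with a 95% interval of -0.48 to 0.74, and -0.12 without WT2.

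*Hspa5*, on chromosome 2 from 34772090 to 34776529 on the plus strand, encodes BiP, the main ER chaperone, which also holds the sensors inactive. It had 659, 673 and 664 CPM in WT and 672, 655 and 635 CPM in MLX KO libraries, and the groups overlapped. The LFC was -0.02 (SE 0.05, 2 of 3 pairs lower, adjusted p = 0.690 from edgeR), and its 95% interval of -0.13 to 0.08 leaves room for small changes in either direction. *Hspa5* overlaps *Rabepk* of the other strand in RefSeq. *Hsp90b1*, on chromosome 10 from 86690841 to 86705444 on the minus strand, encodes the ER member of the HSP90 family. It had 806, 793 and 781 CPM in WT and 780, 747 and 749 CPM in MLX KO libraries, so that the groups did not overlap but KO1 almost met WT3. The LFC was -0.06 (SE 0.05, 3 of 3 pairs lower, adjusted p = 0.280 from edgeR, 95% interval -0.17 to 0.04), and without KO1 it was -0.082 and past the threshold (adjusted p = 0.0395 from edgeR). With library size alone both signs turned, to 0.11 for *Hspa5* (adjusted p = 0.0119 from edgeR) and 0.074 for *Hsp90b1* (adjusted p = 0.0740 from edgeR), against the median of 0.16 over all genes under that scaling.

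**Figure D3:**
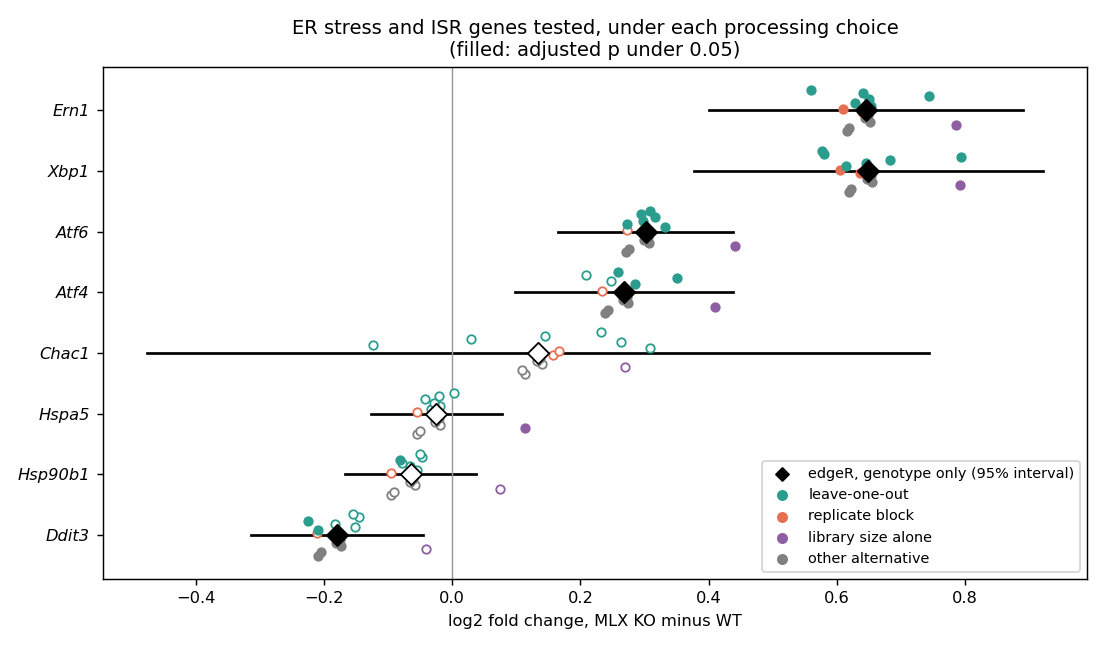
LFC (horizontal axis, log2, MLX KO minus WT) of the 8 genes tested. Diamonds with bars give edgeR with genotype as the only term and its 95% interval, circles the alternatives, filled where the adjusted p was under 0.05. Ern1 and Xbp1 stay between 0.56 and 0.79, and 1 point of Atf6 and several of Atf4 and Ddit3 are open.

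The *Hspa5* and *Hsp90b1* genes carry well known ER stress response elements, so the bases before the annotated start are shown for them. They are also shown for the other stress genes with a match and for *Herpud1*, the only pathway list gene added. The RefSeq promoter table (GRCm38.p6, the assembly of mm10) holds 9 of the 10 genes, *Atf6* being the other, and the 250 bases upstream of each start were searched on both strands. The motifs were the ER stress response elements ERSE (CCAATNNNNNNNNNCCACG, in 0.113% of 32851 promoters) and ERSE-II (ATTGG and CCACG with 1 base of any kind between them, in 0.0304%), the unfolded protein response element (TGACGTGG, in 0.563%), the C/EBP-ATF response element CARE that ATF4 binds (TGATGNAA, in 3.45%), the cAMP response element (TGACGTCA, in 1.55%) and the E-box of the MYC network (CACGTG, in 6.02%). The cAMP element and the unfolded protein response element share letters. ERSE was found once before *Hspa5* and at 2 places before *Hsp90b1*, and CARE once each before *Atf3* and *Chac1*. *Herpud1*, an ER degradation gene described below that fell, held both CARE and ERSE-II. For the other stress genes these letters were not in this window, and matches in the other pathway list genes are not given. A match is a description of the sequence and not a bound site. One that runs past the start would be missed, and the last bases of *Herpud1* follow ERSE up to that edge. In the sequences, 5′ to 3′ on the strand of the gene and ending at the base before the start, capitals mark the matches.
Hspa5, chr2:34771840-34772089, plus strand: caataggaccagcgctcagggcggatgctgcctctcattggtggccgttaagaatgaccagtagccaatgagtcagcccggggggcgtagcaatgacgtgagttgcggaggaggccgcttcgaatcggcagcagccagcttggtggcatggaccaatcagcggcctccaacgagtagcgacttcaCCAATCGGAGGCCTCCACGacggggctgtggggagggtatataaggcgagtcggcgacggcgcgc
Hsp90b1, chr10:86705445-86705694, minus strand: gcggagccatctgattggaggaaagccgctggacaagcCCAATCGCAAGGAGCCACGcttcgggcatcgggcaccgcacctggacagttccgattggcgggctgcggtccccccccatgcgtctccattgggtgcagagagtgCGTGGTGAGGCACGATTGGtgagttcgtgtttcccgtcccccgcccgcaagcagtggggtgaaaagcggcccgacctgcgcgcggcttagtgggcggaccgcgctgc
Atf3, chr1:191183334-191183583, minus strand: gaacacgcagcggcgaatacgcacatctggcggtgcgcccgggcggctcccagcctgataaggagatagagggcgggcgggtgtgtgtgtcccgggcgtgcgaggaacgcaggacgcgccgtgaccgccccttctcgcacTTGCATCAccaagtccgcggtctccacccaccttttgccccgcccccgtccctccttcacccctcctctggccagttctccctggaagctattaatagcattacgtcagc
Chac1, chr2:119350992-119351241, plus strand: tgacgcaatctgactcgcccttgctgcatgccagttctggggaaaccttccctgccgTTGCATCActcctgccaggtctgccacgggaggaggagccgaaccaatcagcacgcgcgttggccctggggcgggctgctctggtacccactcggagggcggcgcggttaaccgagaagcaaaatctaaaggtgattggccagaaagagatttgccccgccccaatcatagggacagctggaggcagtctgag
Herpud1, chr8:94386179-94386428, plus strand: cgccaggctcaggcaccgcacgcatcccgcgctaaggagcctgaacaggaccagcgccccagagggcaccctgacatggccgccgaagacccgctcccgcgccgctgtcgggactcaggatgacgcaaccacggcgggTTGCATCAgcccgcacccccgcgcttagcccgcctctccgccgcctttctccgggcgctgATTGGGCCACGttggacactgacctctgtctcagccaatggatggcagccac

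**Figure D4:**
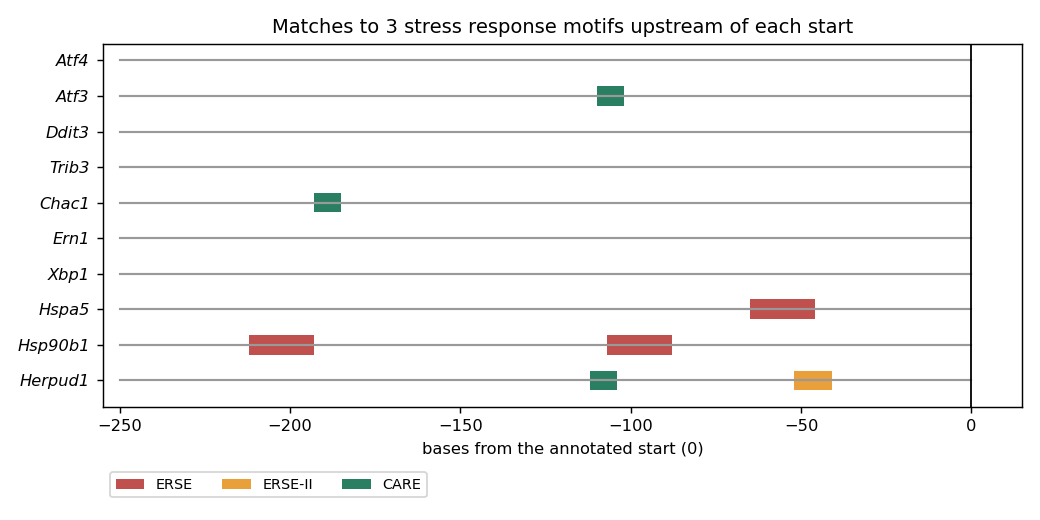
Position of the matches to ERSE, ERSE-II and CARE in the 250 bases upstream of each annotated start (horizontal axis, bases from the start at 0), 1 line for each gene. The ERSE match of Hspa5 begins 65 bases before the start, those of Hsp90b1 at 212 and 107, and the CARE matches of Atf3, Herpud1 and Chac1 at 110, 112 and 193.

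Only the stress genes and *Herpud1* were searched, so whether a motif goes with a change was not tested. Among the genes searched, the 2 that hold ERSE in this window differed little between the genotypes. Of the 3 shown with CARE, *Atf3* was higher in every MLX KO library, *Chac1* overlapped and *Herpud1*, which also holds ERSE-II, fell. None of the 6 motifs was found in the 250 bases upstream of *Ern1*, *Xbp1* or *Atf4*, the genes with a start in the table that were higher past the threshold. Each motif was in at most 6.02% of all promoters, so its absence from such a window is common and does not set these genes apart.

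The wider pathway was followed with 8 lists of genes by role, 112 genes in all, of which 109 were tested, 49 higher and 16 lower past the threshold (59.6%, against 45.4% of all genes). In the ISR, 4 of 13 genes for the eIF2 kinases, eIF2 and eIF2B subunits and phosphatase regulators were past the threshold, 3 of them higher, with a median LFC of 0.02. This share, 30.8%, was below that of all genes (45.4%). *Eif2ak3*, which encodes PERK, rose from 4.27 ± 0.729 to 8.71 ± 0.628 CPM (SD, n = 3 each; LFC 1.02, SE 0.14, adjusted p = 2.76e-04 from edgeR). *Ppp1r15a*, which encodes GADD34 and brings the phosphatase to eIF2, rose from 6.82 ± 0.733 to 10.3 ± 0.404 CPM (LFC 0.60, adjusted p = 0.00176 from edgeR). *Eif2b4*, a subunit of the exchange factor of eIF2, fell from 94.0 ± 2.86 to 73.9 ± 2.68 CPM (LFC -0.35, adjusted p = 2.92e-04 from edgeR). The mRNAs of PERK, IRE1 and ATF6 were thus each higher in 3 of 3 pairs. Each also had every MLX KO library above every WT library, as did 30.3% of all genes tested. *Eif2ak3* was named for the largest increase in its list, so this does not set the sensors apart.

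Of the 21 partners and targets of ATF4 and CHOP, 20 were tested, and 12 were higher and 1 lower past the threshold (all genes 24.8% and 20.6%). The median LFC was 0.46. The number higher in this list was 7 without WT2 or KO2, in fits with fewer samples whose shares over all genes are not given here. It was 6 with the replicate block in DESeq2 (all genes 14.5% with that block). That block left 0 lower (1 at an unadjusted p under 0.05). *Cebpb*, a bZIP partner of ATF4 and CHOP, rose from 0.710 ± 0.470 to 2.67 ± 2.00 CPM, with KO2 at 4.98 CPM and KO1 at 1.44 CPM, near 1.21 CPM in WT1 (LFC 1.87, SE 0.56, adjusted p = 0.0180 from edgeR). Without KO2 its LFC was 1.07 and the adjusted p 0.0883 from edgeR, and it also lost the threshold without WT2 or WT3 (adjusted p = 0.0599 and 0.0623 from edgeR). *Cth*, which makes cysteine from cystathionine, rose from 0.898 ± 0.349 to 1.98 ± 0.601 CPM (LFC 1.11, SE 0.34, adjusted p = 0.0191 from edgeR). It lost the threshold without WT2, KO2 or KO3 (adjusted p = 0.0671 to 0.0738 from edgeR) and with the replicate block in DESeq2 (adjusted p = 0.108). *Asns*, asparagine synthetase and a classical ATF4 target, fell from 166 ± 3.52 to 151 ± 4.56 CPM (LFC -0.14, adjusted p = 0.0324 from edgeR). This call was lost with the replicate block (adjusted p = 0.0609 in edgeR), without WT2, WT3 or KO2, and with library size alone, where the LFC was 0.0024.

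Among 13 other ER stress sensors and their processing factors, 11 were tested, and 4 rose while 1 fell past the threshold around a median LFC of 0.29. The share called, 45.5%, was that of all genes (45.4%). With library size alone 10 were higher, where 36.5% of all genes were. *Creb3l1* and *Creb3l2* encode ER-bound relatives of ATF6. *Creb3l1* rose from 8.05 ± 1.09 to 19.2 ± 3.78 CPM (LFC 1.25, SE 0.15, adjusted p = 1.1e-04 from edgeR) and *Creb3l2* from 3.38 ± 0.350 to 6.03 ± 0.608 CPM (LFC 0.83, adjusted p = 0.00123 from edgeR). *Creb3l4*, the relative that is abundant in spermatids, fell from 293 ± 5.09 to 249 ± 12.4 CPM (LFC -0.23, adjusted p = 0.00323 from edgeR), though library size alone left it short of the threshold (LFC -0.094).

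ER chaperones and folding enzymes went both ways, with 6 of 19 higher and 6 lower past the threshold (all genes 24.8% and 20.6%). Their median LFC was -0.04. With library size alone it was 0.10, with 9 higher and 3 lower (all genes 36.5% and 8.66%). *Ppib*, the ER prolyl isomerase cyclophilin B, rose from 21.4 ± 0.894 to 31.5 ± 1.35 CPM (LFC 0.56, adjusted p = 1.39e-04 from edgeR) and *Uggt1*, the glucosyltransferase that senses unfolded glycoproteins, from 36.4 ± 1.94 to 48.1 ± 6.67 CPM (LFC 0.40, adjusted p = 0.00495 from edgeR). *Ero1lb*, an ER oxidase, fell from 311 ± 5.21 to 244 ± 11.4 CPM (LFC -0.35, adjusted p = 2.76e-04 from edgeR) and *Sil1*, the nucleotide exchange factor of BiP, from 158 ± 6.65 to 128 ± 6.84 CPM (LFC -0.30, adjusted p = 0.00117 from edgeR). The 3 germ cell chaperones all fell, with a median LFC of -0.30. *Clgn* (calmegin) went from 800 ± 17.8 to 652 ± 54.0 CPM (LFC -0.30, adjusted p = 0.00253 from edgeR), and *Calr3* (calsperin) from 146 ± 0.847 to 117 ± 5.50 CPM (LFC -0.31, adjusted p = 4.93e-04 from edgeR). Markers of round and elongating spermatids fell too, with median LFCs of -0.26 and -0.54, and those of spermatocytes with -0.16. A link between these was not tested.

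Of the 17 genes of ER-associated degradation, 7 rose and 3 fell past the threshold (all genes 24.8% and 20.6%), around a median LFC of 0.08. The number higher was 3 with the replicate block in DESeq2 and 11 with library size alone (all genes 14.5% and 36.5%). *Derl3*, a channel component, rose from 22.9 ± 1.32 to 32.7 ± 2.63 CPM (LFC 0.51, adjusted p = 5.19e-04 from edgeR), and *Os9*, a lectin that delivers misfolded glycoproteins, from 61.6 ± 1.21 to 85.2 ± 6.78 CPM (LFC 0.47, adjusted p = 1.79e-04 from edgeR). *Herpud1*, whose promoter is printed above, had 230, 224 and 236 CPM in WT and 181, 164 and 153 CPM in MLX KO libraries, with no overlap (LFC -0.47, SE 0.06, adjusted p = 1.61e-04 from edgeR). *Ube2j1*, the ubiquitin-conjugating enzyme of the ER membrane, fell from 525 ± 5.47 to 439 ± 27.9 CPM (LFC -0.26, adjusted p = 0.00271 from edgeR).

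Among 9 genes that link ER stress to cell death, 6 rose and 1 fell past the threshold (all genes 24.8% and 20.6%), around a median LFC of 0.46. The replicate block in DESeq2 left 3 higher (all genes 14.5%). *Bcl2l11*, which encodes BIM, rose from 8.45 ± 0.0438 to 14.5 ± 0.663 CPM (LFC 0.78, adjusted p = 9.37e-05 from edgeR), and *Bbc3*, which encodes PUMA, from 1.77 ± 0.125 to 2.68 ± 0.167 CPM (LFC 0.59, adjusted p = 0.0247 from edgeR). *Pmaip1*, which encodes NOXA, fell from 4.15 ± 0.495 to 2.90 ± 0.246 CPM (LFC -0.51, adjusted p = 0.0272 from edgeR). With DESeq2, *Bbc3* and *Pmaip1* had adjusted p of 0.158 and 0.0844 without the block and of 0.310 and 0.212 with it, and both lost the threshold without WT1, WT2, KO2 or KO3 in edgeR. The study found more BIM protein in isolated tubule and epididymal cells of MLX KO males. *Bcl2l11* was listed with this known, so its choice was not independent of that result. *Bcl2l11* overlaps *Acoxl*, *Ppp1r15a* overlaps *Tulp2* and *Ppib* overlaps *Snx22* in RefSeq, and their reads could not be told apart where these genes meet.

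The partners of ATF3 in the AP-1 complex and other immediate early genes made up the list with the highest median LFC of the 8, 0.92. Past the threshold, 11 of its 17 genes rose in edgeR and in DESeq2, where 24.8% and 18.4% of all genes did. In both fits 0 of the 17 fell (in edgeR also 0 at an unadjusted p under 0.05), where 20.6% and 19.6% of all genes did. Without KO1 or KO2, 1 fell. *Fosb*, *Fosl1*, *Jund* and *Nr4a1*, named after their values were seen, had an LFC below 0 in edgeR but were not past the threshold. *Fos* had 0.105, 0.636 and 0.677 CPM in WT and 3.30, 1.94 and 1.32 CPM in MLX KO libraries (LFC 2.24, SE 0.49, adjusted p = 0.00370 from edgeR). *Fosl2* rose from 4.01 ± 1.03 to 11.4 ± 3.27 CPM (LFC 1.51, SE 0.23, adjusted p = 4.04e-04 from edgeR). In *Fos*, KO1 was the highest of the MLX KO libraries, and in *Atf3* it was the lowest.

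**Figure D5:**
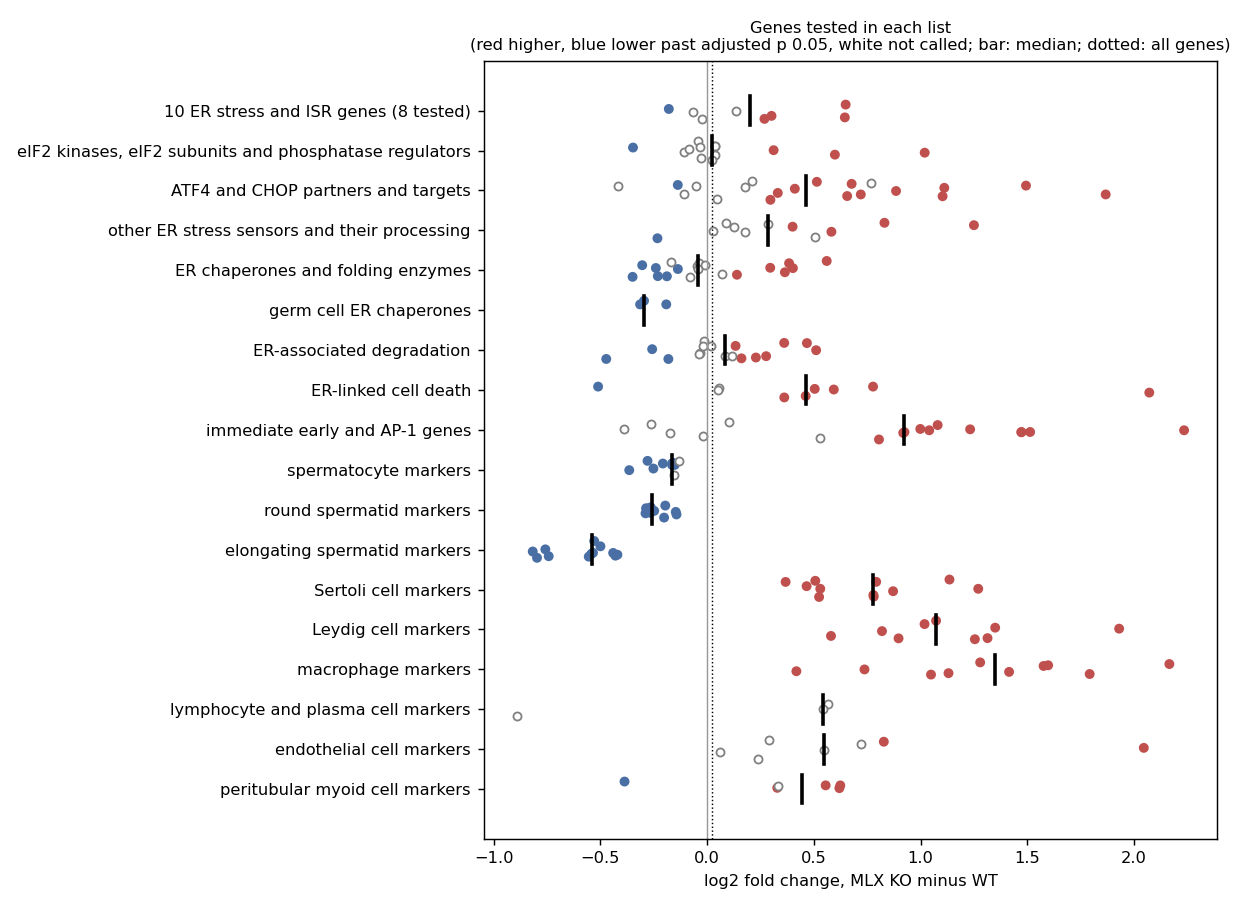
LFC (horizontal axis, log2, MLX KO minus WT) of each tested gene in the 10 stress genes, the 8 pathway lists and 9 of the cell type marker lists. Red points are higher and blue points lower past the threshold, white points are not, black bars are medians and the dotted line is the median of all genes at 0.03. The medians of the germ cell chaperones and of the germ cell markers lie below 0. That of the immediate early genes lies above 0, with 4 of the 17 genes below. So do those of the ATF4 and CHOP list, the cell death list and the Sertoli, Leydig, macrophage, endothelial and myoid markers. Whether the lists follow the markers was not tested.

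The genes with the profile most like those of *Xbp1*, *Ern1* and *Atf6* over the 6 libraries were sought among 11044 genes of at least 5 CPM on average, by the root mean square difference of centred log2 CPM. For *Xbp1* they were *Gstm7*, *Degs1* and *Gamt* (0.0421 to 0.0485), for *Ern1* they were *Gprasp1*, *Mavs* and *Usp22* (0.0218 to 0.0363), and for *Atf6* they were *Ttn*, *Atad2b* and *Tspyl1* (0.0147 to 0.0270). None of these 9 is a member of the pathway lists. The lists hold 112 genes against the 11044 searched, so a count of none says little about the pathway. Endothelial markers had a median LFC of 0.55 with 2 of 7 higher past the threshold, and peritubular myoid markers 0.44 with 4 of 6 higher and 1 lower. The summed level of the myoid markers did not rise (310 to 369 CPM in WT and 309 to 325 in MLX KO libraries). The 6 epididymis markers with a row summed to less than 1 CPM in every library.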

How the data were processed

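RNA-seq libraries of 3 WT and 3 MLX KO testes were analysed. The ChIP-Seq samples were not analysed here. The authors aligned reads to mm10 with TopHat and deposited raw counts per gene symbol. The counting tool, strand setting and annotation are not given in the sources used here. The same table holds the authors' own comparison (mean, fold change, error, test value, p and adjusted p), which was not used. Of 17933 rows, 2 repeated another and were used once.

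Counts were fitted in edgeR 4.0.16 (R 4.3.3) with filterByExpr (minimum count 10), TMM factors and a two-sided quasi-likelihood test of the genotype, its single term, with Benjamini-Hochberg adjustment over 14640 genes and a threshold of 0.05. DESeq2 1.42.0 was an alternative, with other scalings and filters, the littermate pair as a block, and each library left out. Pairing comes from the sample titles and the methods. Deviations from the group means correlated at 0.145, 0.0363 and 0.121 between same-numbered libraries. Between WT and MLX KO libraries of different number they correlated at -0.123 to 0.0330, below each same-numbered value. P-values measure the spread between these 6 animals. Exon lengths are from GENCODE vM21, positions and promoters from RefSeq (GRCm38.p6). Of the listed genes, 3 were matched by an older symbol and 4 markers had no row. The code was checked on simulated counts.

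All 10 stress genes are named. From each pathway list, the 2 largest increases and 2 largest decreases past the threshold with a mean of at least 1 CPM are named, and for the 3 stress genes of largest change the 3 genes of most like profile. Other names were chosen after their values were seen. The genes, lists and tests were chosen with earlier results of these data known.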

Additional observations from a re-analysis of the deposited data

How the results depend on the processing

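Of the 10 stress genes, the number past the threshold was 5 in edgeR with genotype as the only term, 3 with the replicate block in DESeq2, and 3 to 7 when each library was left out. Without WT1, WT2, WT3 or KO1, 9 genes were tested in place of 8, since *Atf3* then passed the filter, through the MLX KO libraries where it is high. Leaving *Atf3* aside, the numbers were 3 to 6. With the replicate block in DESeq2, *Atf4* (LFC 0.23), *Atf6* (LFC 0.27) and *Ddit3* (LFC -0.21) were not past it, while the replicate block in edgeR gave 5 and changed no other call among these genes. With library size alone, LFCs were -0.041 for *Ddit3*, 0.11 for *Hspa5*, 0.074 for *Hsp90b1* and 0.0024 for *Asns*. With a library left out, LFCs ranged from 0.21 to 0.35 for *Atf4*, -0.23 to -0.15 for *Ddit3*, -0.042 to 0.0022 for *Hspa5*, -0.082 to -0.048 for *Hsp90b1* and -0.12 to 0.31 for *Chac1*. What caused these shifts was not tested. The fits with a library left out also had fewer samples, and their shares over all genes are not given here. Pathway list genes past the threshold numbered 65 (46 to 73 over the alternatives) and marker genes 67 (57 to 69). Higher and lower calls over all genes were 3634 and 3015, 5343 and 1268 with library size alone, and 2193 and 2386 with DESeq2 and the replicate block. For the genes named from the lists, 309 of the values under alternatives kept their direction and call, 26 lost the call and 1 turned. Depth limits *Atf3*, *Trib3* and *Chac1*.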

Other observations

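The genes given here belong to the pathway lists but fall outside the rule for named genes, and were picked after their values were seen. *Ddit4*, which encodes the mTORC1 inhibitor REDD1, rose from 13.0 ± 0.792 to 24.0 ± 1.56 CPM (SD, n = 3 each; LFC 0.89, adjusted p = 2.79e-05 from edgeR). *Slc3a2*, the heavy chain of the amino acid transporters that include the cystine carrier, rose from 124 ± 2.49 to 198 ± 25.8 CPM (LFC 0.68, adjusted p = 9.37e-05 from edgeR). *Casp12*, an ER-associated caspase that the study also named on these libraries, had 0.105, 0.318 and 0.564 CPM in WT and 1.08, 1.94 and 1.16 CPM in MLX KO libraries (LFC 2.07, SE 0.46, adjusted p = 0.00379 from edgeR). Among chaperones, *Hyou1* fell from 271 ± 2.41 to 230 ± 1.84 CPM (LFC -0.24, adjusted p = 0.00115 from edgeR) and *Creld2* from 232 ± 4.71 to 197 ± 5.27 CPM (LFC -0.23, adjusted p = 0.00205 from edgeR). Each of these 5 genes had no overlap between the groups. Over all genes tested, 30.3% had every MLX KO library above WT and 25.9% every one below, so this does not set them apart.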
